A study of Mus musculus with 19 samples.

Results

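The Intermediate Activation cells are the CD8 T cells to which the authors gave that name when they clustered single-cell transcriptomes from A223 tumours and spleens. They were taken here by that cluster name alone and numbered 4714 of 41099 cells, or 11.5% of all cells, with 2687 in tumours and 2027 in spleens. Next to them in the authors' naming stand Initial Activation, with 4559 cells, and Highest Activated, with 4011 cells.

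A223 is a mouse squamous cell carcinoma, derived from the C57BL/6 strain per the labels, that was injected into C57BL/6J mice, where some tumours grew and others regressed. CD8 T cells were flow-sorted from liberase-digested tumours and from spleens and read in 9 droplet libraries. No group carried a genetic change or a drug treatment in the labels. The groups were 3 growing tumours (replicates 1, 2 and 3), 3 regressing tumours (replicates 1, 2 and 3), 1 spleen of a growing-tumour mouse (replicate 3) and 2 spleens of regressing-tumour mice (replicates 2 and 3). Replicate 1 of both tumour states was captured at the 3′ end of the RNA and all other libraries at the 5′ end. Age, whether a library pooled mice, and whether a tumour and spleen of the same state and number came from the same mouse are unknown from the labels, so p-values measure the spread between these libraries only.

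CD8 T cells kill cells that display a peptide their receptor recognises. A naive cell that meets its antigen becomes activated, divides into a clone that shares the same receptor, and acquires cytotoxic granules, and long stimulation in a tumour can drive it into an exhausted state with raised inhibitory receptors. Gzmk and Nkg7, the genes given as markers of the Intermediate Activation cells, encode granzyme K, a serine protease of cytotoxic granules, and a granule membrane protein that promotes their release. The name could not be set against these markers, because levels of single genes were not analysed here. What could be measured per cell was the cluster, cell-cycle phase, RNA content, mitochondrial RNA and the T cell receptor.

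The libraries held from 1655 to 7832 cells and from 10611320 to 58661165 UMIs (unique molecular identifiers, the counted RNA molecules), of which the Intermediate Activation cells gave from 977798 to 5830524. Between libraries 988 cell barcodes were shared in all and 16 among Intermediate Activation cells, and 0 of the sharing cells had the same UMI and gene counts. UMI counts above 3 times the cluster's median in the same library were found in 59 Intermediate Activation cells, or 1.25%, and were kept.

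Intermediate Activation was the cluster whose share varied least over the 9 libraries. Growing tumours held 168, 448 and 219 of these cells in replicates 1, 2 and 3, which made 9.39%, 10.5% and 12.7% of their CD8 T cells. Regressing tumours held 180, 868 and 804 cells, which made 10.9%, 11.1% and 11.1%. The spleen of the growing state held 532 cells, or 13.5%, and the regressing spleens held 758 and 737, or 11.5% and 12.2%. The lowest and highest of these shares thus differed 1.44-fold, and their coefficient of variation was 10.8%, the lowest among 13 clusters. Highest Activated came next at 19.0%, with shares from 7.18% to 12.8%, and Initial Activation reached 73.6%, with shares from 2.49% to 33.8%. These figures describe the authors' clustering of the same cells and were not tested.

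**Figure D1:**
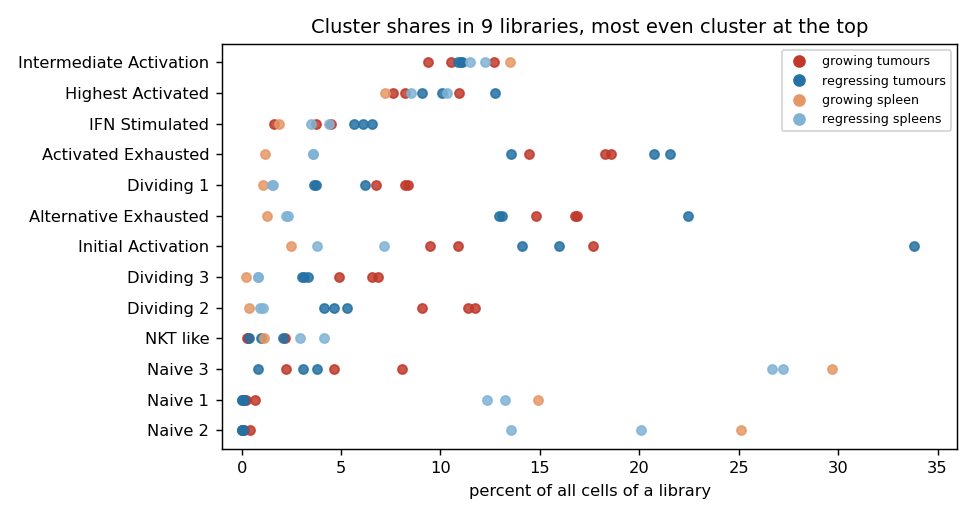
Each row is a cluster named by the authors and each point is its share of all cells in 1 library, in percent, coloured by group, with the most even cluster at the top. The 9 points of Intermediate Activation lie between 9.39% and 13.5%, the narrowest relative spread of the 13 rows.

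Whether these cells were more common where the tumour grew was addressed by the tumour libraries. Their mean share was 10.9% ± 1.68 where the tumour grew and 11.003% ± 0.111 where it regressed (SD over 3 libraries each). The difference of -0.144 percentage points was smaller than the spread between growing libraries, and the groups overlapped (two-sided exact permutation test, p = 0.9, adjusted over the clusters 0.975). With 3 libraries against 3 the smallest p is 0.1. Of the 13 clusters, 30.8% had shares that did not overlap between the states, and Intermediate Activation was not among them. The 3 regressing tumours sat within a narrow band, and growing replicates 1 and 3 lay below and above it.

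Tumour and spleen differed in what surrounded these cells. In the spleen most CD8 T cells fell in the naive clusters, and Intermediate Activation was the largest of all remaining clusters in each of the 3 spleens. In tumours it ranked between the third and the sixth among non-naive clusters, behind exhausted, Initial Activation or other clusters. Among non-naive cells the growing tumours held 9.61%, 11.5% and 13.5% Intermediate Activation cells and the regressing tumours 10.98%, 11.5% and 11.4%. The growing spleen held 44.6% (exact 95% interval 41.8 to 47.5) and the regressing spleens 29.1% (27.4 to 30.9) and 25.8% (24.2 to 27.4). Intervals here and below are exact Clopper-Pearson intervals and cover counting error only. Every spleen was thus above every tumour by this measure. The same held for Highest Activated, at 21.6% to 23.7% in spleens and 8.30% to 13.3% in tumours. It also held for the cluster named NKT-like, at 3.69% to 8.71% in spleens and 0.307% to 2.36% in tumours.

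Over the 3 tumour and spleen pairs of the same state and number, the share of non-naive cells was 12.1% ± 1.14 in tumours and 33.2% ± 10.1 in spleens (SD, n = 3 each). All 3 pairs had the lower value in the tumour. The difference was -17.6 percentage points for regressing replicate 2, -14.4 for regressing replicate 3 and -31.2 for growing replicate 3, a mean of -21.1 ± 8.92. The exact sign-flip test gave p = 0.25, the smallest that 3 pairs allow, and 0.278 adjusted over the clusters. Without the pairing, 4 tumours of the 5′ kind against 3 spleens gave an exact permutation p of 0.0286, also the smallest possible, and 0.0571 after adjustment. Leaving out the dividing clusters as well took the unpaired adjusted value to 0.04, with 15.0% ± 2.66 in 4 tumours and 35.6% ± 10.3 in 3 spleens (exact permutation test). The unadjusted p stayed at 0.0286, so the lower value came from adjusting over fewer clusters. Other clusters separated the same libraries fully by that share. Highest Activated had 10.7% to 15.6% in tumours and 23.5% to 25.1% in spleens, and Activated Exhausted 24.1% to 27.1% in tumours and 4.17% to 9.98% in spleens. By share of all cells, 84.6% of the 13 clusters differed the same way in every tumour and spleen pair. A share cannot tell more of these cells from fewer cells of other kinds.

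**Figure D2:**
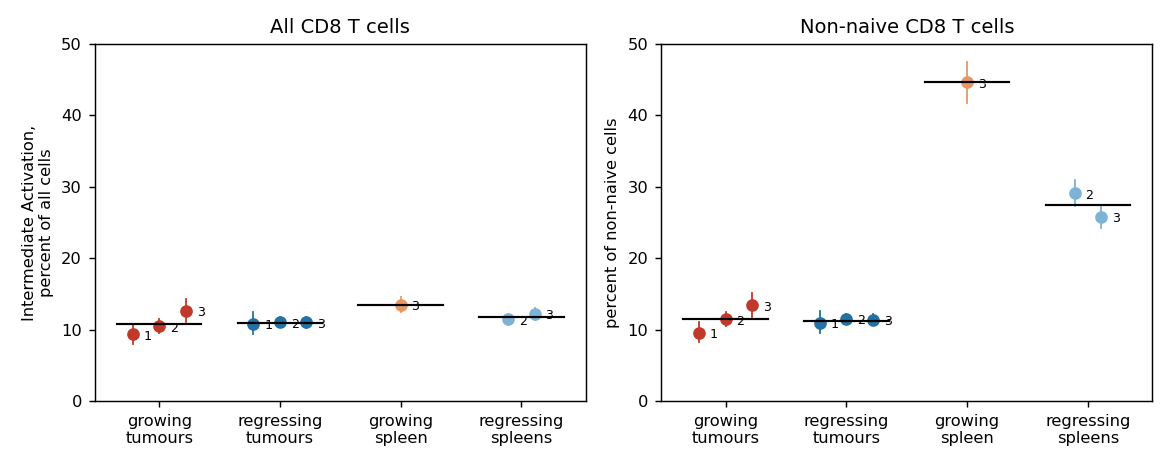
Points give the share of Intermediate Activation cells in each library, in percent of all cells (left) and of non-naive cells (right), with exact 95% intervals. Shares of all cells stay between 9.39% and 13.5%, whereas among non-naive cells the spleens lie between 25.8% and 44.6% and the tumours between 9.61% and 13.5%.

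Most Intermediate Activation cells were called G1, from 77.6% to 85.4% of them over the 9 libraries. The authors' phase call comes from scores over S-phase and G2M-phase genes, the genes of DNA replication and of mitosis. Growing tumours had 14.9%, 15.8% and 12.3% of these cells called S and regressing tumours 16.1%, 13.8% and 19.8%. The growing spleen had 13.3% and the regressing spleens 17.4% and 17.9%. Calls of G2M made 1.79%, 3.35% and 2.28% in growing tumours, 1.11%, 3.46% and 2.61% in regressing tumours, 3.95% in the growing spleen and 3.43% and 3.93% in the regressing spleens. For S, growing and regressing tumours overlapped, as did tumours and spleens as a whole, while all 3 growing tumours lay below both regressing spleens. For G2M the tumours and spleens overlapped only through regressing tumour replicate 2. The scores behind the calls were lower in the tumour in 3 of 3 pairs. Median S scores were -0.0471 ± 0.00204 in tumours and -0.0382 ± 0.00134 in spleens, without overlap (SD, n = 3 each; exact sign-flip p = 0.25, adjusted 0.5). The paired difference was -0.00889 ± 0.00296, and -0.00564 ± 0.00399 in the other non-naive, non-dividing cells. For the median G2M score it was -0.00519 ± 0.000733, with overlap (exact sign-flip p = 0.25, adjusted 0.5).

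As a description, over the 6 tumours 15.5% ± 2.53 of Intermediate Activation cells were called S, against 33.0% ± 3.13 of Initial Activation cells, 23.2% ± 3.40 of Highest Activated cells and 29.0% ± 0.723 of all other non-naive cells (SD, n = 6 each). In spleens the same values were 16.2% ± 2.50, 27.1% ± 3.35, 29.9% ± 0.501 and 27.1% ± 0.584 (SD, n = 3 each). The set of all other non-naive cells included the dividing clusters. S shares were also ranked from the lowest among the non-naive clusters not named as dividing, which were 6 or 7 per library. In tumours Intermediate Activation ranked between 1 and 3. In each of the 3 spleens it ranked 4 of 7, the middle place, so its S share was not low among these clusters there. No test is given for these comparisons, since the scores rest on genes of the cells that were clustered.

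Between tumour states the calls did not differ beyond the spread. S calls averaged 14.4% ± 1.82 in growing and 16.6% ± 3.002 in regressing tumours, and G2M calls 2.47% ± 0.798 in growing and 2.39% ± 1.19 in regressing tumours (SD, n = 3 each). The exact permutation tests gave p = 0.4 and p = 1, or 0.96 and 1 adjusted over 8 measures. The direction of the G2M difference was not stable, as the closing values show. Phase calls moved with UMI count when the cells of all 9 libraries were pooled. Within libraries, cells called S had fewer median UMIs than G1 cells except in 2 cases. These were regressing tumour 1 (5471 against 5146) and regressing spleen 2 (5210 against 5163). Cells called G2M had fewer except in regressing tumour 1, with 2 such cells. Over 4 strata of Intermediate Activation cells of equal cell number, from the fewest UMIs to the most, S calls made 17.9%, 16.1%, 16.5% and 14.5% and G2M calls 5.69%, 3.73%, 2.38% and 1.10%. The part of depth in phase differences between libraries was not tested beyond giving each library the same mix of these strata. With that mix the S difference between growing and regressing tumours was -1.02 percentage points, against -2.22 as counted.

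RNA content varied between libraries of the same group. Median UMIs per Intermediate Activation cell were 5464, 6638.5 and 10421 in growing tumours, 5238.5, 5056.5 and 6747.5 in regressing tumours, 7638 in the growing spleen and 5144.5 and 6541 in the regressing spleens. Growing replicate 3 stood above all other libraries, and the other cells of that library were also rich in UMIs. The state means were 7508 ± 2590 in growing and 5681 ± 928 in regressing tumours (SD, n = 3 each; exact permutation p = 0.3, adjusted 0.96). Without growing replicate 3 the difference fell to 370 UMIs, against 1827 with it. Paired by replicate number, 3 of 3 growing tumours had the higher median, and limma with the number as a block gave an adjusted p of 0.479, against 0.689 without it. Genes detected per cell followed, with 2215 ± 486 in growing and 1922 ± 235 in regressing tumours (SD, n = 3 each; exact permutation p = 0.6, adjusted 0.96). Without growing replicate 3 that difference was 19 genes, against 293 with it. As a description, over the 6 tumours Intermediate Activation cells lay between its neighbours in name, at 6594 ± 2007 UMIs, against 4705 ± 1405 in Initial Activation and 8387 ± 2499 in Highest Activated cells (SD, n = 6 each).

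The mitochondrial share of RNA, a measure that rises in stressed or damaged cells and with respiratory activity, differed by tissue. The median per Intermediate Activation cell was 1.78%, 2.23% and 1.72% of UMIs in growing tumours and 1.84%, 2.14% and 1.77% in regressing tumours. It was 3.37% in the growing spleen and 3.10% and 2.86% in the regressing spleens. No tumour overlapped with any spleen, and the tumour states overlapped with each other, at 1.91% ± 0.279 in growing and 1.92% ± 0.1997 in regressing tumours (SD, n = 3 each; exact permutation p = 1). Over the 3 pairs the medians were 1.88% ± 0.231 in tumours and 3.11% ± 0.258 in spleens, lower in the tumour in 3 of 3 pairs by a mean of -1.23 ± 0.367 percentage points (exact sign-flip p = 0.25, adjusted over 8 measures 0.5). By pair it was -0.957 for regressing replicate 2, -1.09 for regressing replicate 3 and -1.65 for growing replicate 3. Given the same mix of UMI strata, the mean difference was -1.16 percentage points.

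Other non-naive cells differed the same way, and the gap was somewhat wider in Intermediate Activation. In the other non-naive cells the paired difference was -1.02 ± 0.290 percentage points, with 1.81% ± 0.152 in tumours and 2.83% ± 0.210 in spleens (SD, n = 3 each). The difference between the differences was -0.210 ± 0.0869 percentage points, with the Intermediate Activation gap wider in 3 of 3 pairs (exact sign-flip p = 0.25, adjusted 0.33). Against Initial and Highest Activated cells alone it was -0.227, again in 3 of 3 pairs. In the spleens the mean of 3.11% was close to that of naive cells, at 3.13% ± 0.173 (SD, n = 3), and ranked sixth or highest of 7 among the non-naive, non-dividing clusters. Tumours were digested with liberase before sorting, and the labels mention no such step for spleens, so tissue and preparation cannot be told apart.

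**Figure D3:**
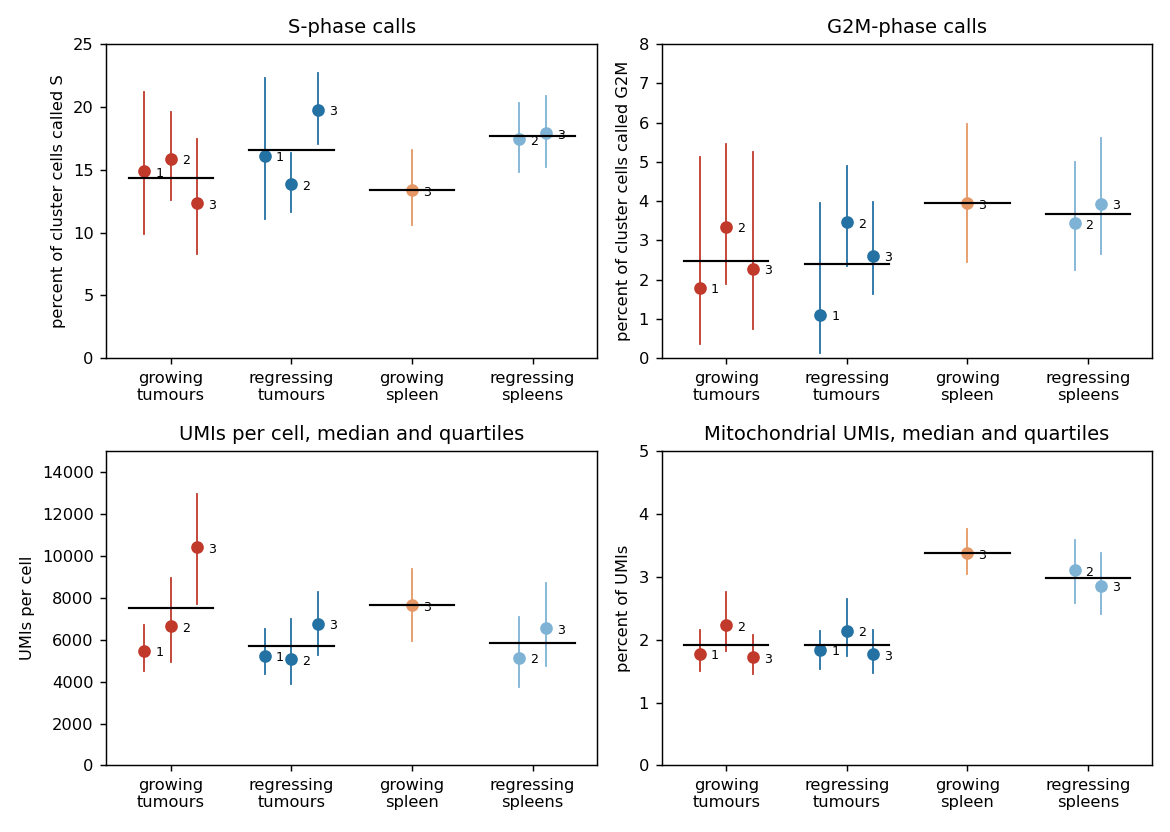
The panels give, for Intermediate Activation cells of each library, the percent called S and G2M with exact 95% intervals (top) and the medians and quartiles of UMIs per cell and of the mitochondrial percent of UMIs (bottom). Median mitochondrial percent lies between 1.72% and 2.23% in the tumours and between 2.86% and 3.37% in the spleens, and the UMI median of growing tumour replicate 3 is the highest at 10421.

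The T cell receptor identifies the clone a cell belongs to. Receptor labels were present for cells of the 7 libraries of the 5′ kind. The labels also list a receptor library for regressing tumour 1, but no cell of that tumour carried a receptor label. The cluster rule did not use it. Whether receptor genes were among those that drove the clustering is not stated. A receptor label was present for 354 (79.0%) and 189 (86.3%) Intermediate Activation cells of growing tumours 2 and 3, and for 465 (53.6%) and 525 (65.3%) of regressing tumours 2 and 3. In the growing spleen it was 371 (69.7%) and in the regressing spleens 463 (61.1%) and 473 (64.2%). Labelling was thus lower in the regressing than in the growing tumours, and receptor shares below are of labelled cells.

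The authors named 71 tumour clonotypes by the junction sequences of the receptor's alpha and beta chains, and 70 of them had at least 1 Intermediate Activation cell. Clones are called here by tumour and by rank of size among the named clones of that tumour, so that clone 1 is the largest, and their sequences are not printed. The clones with the most cells in the cluster differed widely in size. In growing tumour 2 the leader was clone 2, with 42 of its 162 cells in Intermediate Activation (25.9%). Clone 1 of that tumour followed with 36 of 493 cells (7.30%), and clone 3 with 19 of 138 (13.8%).

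In growing tumour 3 the cluster was led by clone 4, with 32 of 82 cells in it (39.0%). Clone 3 had 22 of 90 (24.4%), and clone 7 had 21 of 47 (44.7%). Clone 1 of that tumour was not among these 3 and had 10 of its 249 cells in the cluster (4.02%).

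In regressing tumour 2 clone 1 led with 34 of 560 cells (6.07%). Clone 17 gave nearly as many from a much smaller clone, 32 of 56 (57.1%), and clone 12 had 21 of 77 (27.3%). Both shared their rank with a clone of the same size, of which 4 of 56 and 8 of 77 cells lay in the cluster, and clones 17 and 12 mean here the first-named ones. In regressing tumour 3 the dominant clone 1 led with 116 of 2137 cells (5.43%), ahead of clone 3 with 53 of 169 (31.4%) and clone 2 with 39 of 234 (16.7%). A leading place in the cluster thus came from a small share of a large clone, from a large share of a small clone, or from both size and share. Clone 2 of growing tumour 2 and clones 2 and 3 of regressing tumour 3 ranked high in size. Their shares also lay above those of the other labelled cells of their tumours, at 10.3%, 10.3% and 9.89%.

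The share of a clone found in Intermediate Activation ranged widely. Over 52 entries of a clonotype with 50 or more cells in a tumour it ran from 1.67% to 67.3%, with a median of 10.5%. The median was 11.6% over 10 entries of growing tumour 2, 19.5% over 6 of growing tumour 3, 8.99% over 20 of regressing tumour 2 and 10.9% over 16 of regressing tumour 3. In 13 entries the exact 95% interval lay above the share of the remaining labelled cells of that tumour, in 10 it lay below, and in 29 it spanned that share. The 23 entries outside made 44.2% of those examined. The same count gave 44.2% for Activated Exhausted, 46.2% for Initial Activation, 65.4% for Highest Activated and 71.2% for Alternative Exhausted, so uneven clones were not particular to Intermediate Activation.

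Among clones of 50 or more cells in a tumour, the 3 highest shares belonged to clones of 55, 56 and 82 cells. Clone 16 of regressing tumour 3 had 37 of 55 cells in the cluster, 67.3% (53.3 to 79.3). Clone 17 of regressing tumour 2 followed at 57.1% (43.2 to 70.3), and clone 4 of growing tumour 3 at 39.0% (28.4 to 50.4). None of these 3 was in a similarity group, the authors' label for receptors of like sequence, whereas clone 7 of growing tumour 3, left out with 47 cells, stood at 44.7% and was in Group 1. Size and share in the cluster were also compared over named clones of 20 or more cells. Their Spearman correlation was 0.157 and -0.0633 in growing tumours 2 and 3, and -0.505 and -0.264 in regressing tumours 2 and 3.

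The 3 lowest shares had wide intervals where clones were small. Clone 16 of regressing tumour 2 had 1 of 60 cells in the cluster, 1.67% (0.0422 to 8.94). Clone 9 of growing tumour 2 had 2 of 53 cells, 3.77% (0.460 to 12.98), and clone 1 of growing tumour 3 stood at 4.02% (1.94 to 7.26). The interval of clone 9 spanned the share of the other labelled cells of its tumour, 11.3%, and those of the other 5 extremes did not.

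Entries above, below and spanning the rest of their tumour also differed in where else their cells lay. The 13 entries above had 52 to 234 cells and a median of 1.92% of cells in Highest Activated, with a range from 1.18% to 10.98%. The 10 entries below had 60 to 2137 cells and a median of 8.18% there, and the 29 spanning entries a median of 10.9%. Medians in the exhausted clusters were 39.6% above, 53.0% below and 41.0% spanning. A similarity group was given for 4 of the 13 entries above, 8 of the 10 below and 15 of the 29 spanning. Since the shares of a clone over clusters sum to a fixed total, these values describe the clones and were not tested.

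**Figure D4:**
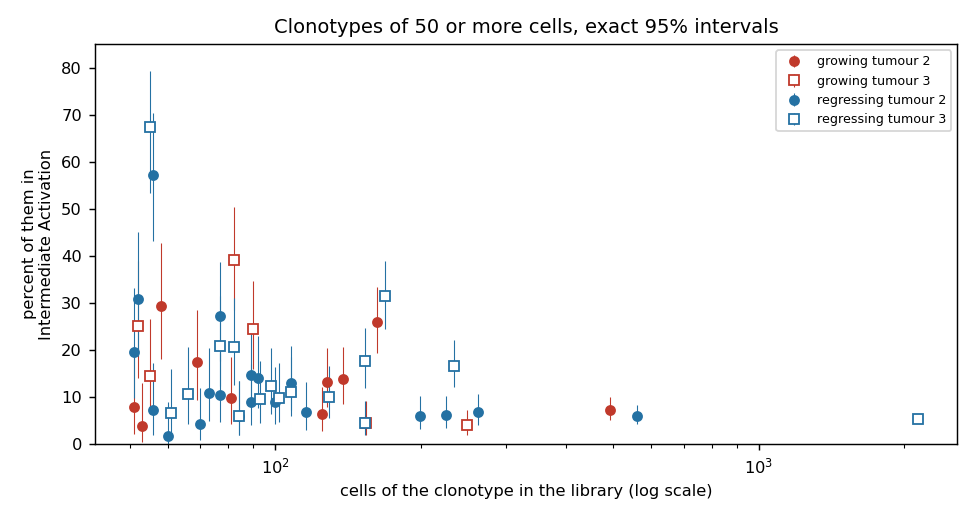
Each point is a named clonotype with 50 or more cells in a tumour library, plotted by its number of cells (log scale) against the percent of them in Intermediate Activation, with exact 95% intervals and colour by tumour state. The highest shares, 67.3% and 57.1%, belong to clones of 55 and 56 cells, and the largest clone, of 2137 cells, lies at 5.43%.

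The largest clone of each tumour made a smaller share of Intermediate Activation than of all other labelled cells together. In growing tumours 2 and 3 it made 10.2% and 5.29% of labelled cells of the cluster, against 16.2% and 21.6% of the other labelled cells. In regressing tumours 2 and 3 it made 7.31% and 22.1%, against 14.1% and 45.8%. The share was lower in 4 of 4 tumours, by a mean of -13.2 ± 8.40 percentage points (exact sign-flip p = 0.13, the smallest that 4 libraries allow, adjusted over 3 receptor measures 0.188). Against Highest Activated cells alone the share was lower in 4 of 4 tumours, by a mean of -8.15, but against Initial Activation cells it was higher in 3 of 4, at 11.2% ± 7.52 in Intermediate Activation and 8.63% ± 6.53 in Initial Activation (SD, n = 4 each; exact sign-flip p = 0.25). These comparisons were chosen after the clonotype values had been seen. The clone was also picked as the largest over all labelled cells, most of which lay outside the cluster. That choice favours a lower share inside it, so the test against the other labelled cells cannot decide the question.

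The total share of named clonotypes did not differ in a common direction. It was 55.1% and 81.0% of Intermediate Activation cells in growing tumours 2 and 3, against 50.1% and 74.8% of other labelled cells. In regressing tumours 2 and 3 it was 57.6% and 75.4%, against 62.4% and 78.3%. The mean difference was 0.884 ± 5.49 percentage points, higher in 2 of 4 tumours (exact sign-flip p = 0.75, adjusted 0.75).

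The authors also assigned receptors to 10 similarity groups, labelled GLIPH after a method that gathers receptors likely to share a specificity from their sequence motifs. In tumours, cells in any such group made a smaller share of Intermediate Activation than of other labelled cells. They made 42.9% and 43.4% of labelled cells of the cluster in growing tumours 2 and 3, against 53.7% and 52.2% of other labelled cells. In regressing tumours 2 and 3 they made 31.4% and 55.05%, against 46.8% and 66.9%. The share was lower in 4 of 4 tumours, by -11.7 ± 2.74 percentage points (exact sign-flip p = 0.13, the smallest possible, adjusted 0.188), and by -13.9 against non-naive cells only. Against Highest Activated alone it was lower in 4 of 4 tumours, and against Initial Activation in 2 of 4. The largest clone of each tumour was itself in a similarity group. It was in Groups 3 and 4 in growing tumours 2 and 3, and in Groups 1 and 2 in regressing tumours 2 and 3. The group share thus counts cells already counted for the largest clone, and the group share without that clone was not tested. In the spleens the direction of the group share was the other one. Cells in any group made 13.1% ± 10.5 of Intermediate Activation and 5.06% ± 3.72 of all other labelled cells, higher in 3 of 3 spleens (SD, n = 3 each; exact sign-flip p = 0.25). Against the other non-naive spleen cells, at 12.6% ± 9.44, the difference was 0.545 percentage points (exact sign-flip p = 1).

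The groups did not all move together. As a share of labelled cells, Group 5 was lower in the cluster in 4 of 4 tumours, by a mean of -3.29 percentage points, and Group 7 higher in 4 of 4, by 2.13. Each had an exact sign-flip p of 0.13, or 0.625 adjusted over 10 groups. In some tumours few cells set the direction. Group 7 had 1 of 4 cells in the cluster in growing tumour 2 and 4 of 11 in regressing tumour 2. Group 5 had 1 of 13 in regressing tumour 3. Groups 3 and 4 were lower in 3 of the 3 tumours in which they occurred, but not always by much. Group 4 had 2 labelled cells in growing tumour 2, with 0 in the cluster, and differed by -0.244 percentage points in regressing tumour 2. Group 3 differed by -0.179 in regressing tumour 3. Seen from the groups, 4.02% (1.94 to 7.26) of 249 Group 4 cells of growing tumour 3 and 6.07% (5.16 to 7.08) of 2489 Group 2 cells of regressing tumour 3 lay in Intermediate Activation. Of Group 7, the share was 24.2% (15.8 to 34.3) of 91 cells in growing tumour 3 and 17.5% (11.9 to 24.5) of 154 cells in regressing tumour 3.

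The same group could take different shares in different tumours. Group 9 placed 6.55% (3.99 to 10.0) of 290 cells in the cluster in regressing tumour 2 and 30.2% (23.8 to 37.2) of 192 cells in regressing tumour 3. Most group cells of a tumour can belong to a single clone, as with Group 4 in growing tumour 3, so these shares are not independent of the clonotype values above.

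Receptors found in several tumours could be followed between them. The receptor of clone 1 of growing tumour 3 was also present in regressing tumour 2, and it placed 4.02% (1.94 to 7.26) of 249 cells in the cluster in growing tumour 3 and 9.00% (4.20 to 16.4) of 100 cells in regressing tumour 2. A second receptor placed 9.88% (4.36 to 18.5) of 81 cells there in growing tumour 2, 12.96% (7.27 to 20.8) of 108 in regressing tumour 2 and 3 of 7 in regressing tumour 3. For both receptors the intervals overlapped between the growing and the regressing tumours. The beta chain of the second, paired with any alpha chain, placed 9.88% of 81 cells in growing tumour 2, 44.7% of 47 in growing tumour 3, 8.85% of 384 in regressing tumour 2 and 16.0% of 257 in regressing tumour 3. The rule left out other receptors found in several tumours, among them that of clone 9 of growing tumour 2. That receptor placed 3.77% (0.460 to 12.98) of 53 cells there and 9.80% (4.80 to 17.3) of 102 in regressing tumour 3.

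Within Intermediate Activation the clonal make-up was not told apart by tumour state. Named clonotypes made 68.0% ± 18.3 of labelled cells in growing and 66.5% ± 12.6 in regressing tumours (SD, n = 2 each; exact permutation p = 1). The largest clonotype within the cluster made 14.4% ± 3.58 in growing and 14.7% ± 10.5 in regressing tumours (SD, n = 2 each; exact permutation p = 1). The top 10 together made 60.7% ± 15.9 in growing and 52.7% ± 17.6 in regressing tumours (SD, n = 2 each; exact permutation p = 0.667). With 2 libraries against 2 the smallest p is 0.33, so no such difference could have passed.

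In the spleen libraries the authors marked some cells as top spleen clones, by a rule that is not stated. Such cells made 0.809% (0.167 to 2.34) of labelled Intermediate Activation cells in the growing spleen and 16.8% (13.6 to 20.6) and 22.2% (18.5 to 26.2) in the regressing spleens. Among all other labelled cells they made 0.296%, 6.20% and 7.93% in the same libraries. The share was higher in 3 of 3 spleens, by a mean of 8.47 percentage points (exact sign-flip p = 0.25, the smallest possible). Most of those other cells were naive, however. Against other non-naive cells, at 1.46%, 19.1% and 19.9%, the mean difference was -0.173 percentage points, with 1 of 3 higher (exact sign-flip p = 1).

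The activated clusters of the spleen nonetheless differed from each other in these clones. In the growing spleen they made 0 of 210 labelled Highest Activated cells, with an exact upper bound of 1.74% (1.43% by the limit that 3 counts would set), and 1.47% of Initial Activation cells. In regressing spleens 2 and 3 they made 1.00% (0.274 to 2.55) and 0.637% (0.132 to 1.85) of Highest Activated cells, and 44.3% (36.4 to 52.4) and 44.0% (38.2 to 49.9) of Initial Activation cells. Intermediate Activation, at 16.8% and 22.2%, lay between them in both regressing spleens. Against Highest Activated it was higher in 3 of 3 spleens by a mean of 12.7 percentage points, and against Initial Activation lower in 3 of 3 by a mean of -16.6 (exact sign-flip p = 0.25 each, a comparison chosen after the values were seen). In the growing spleen these directions rest on 3 of 371 Intermediate Activation, 0 of 210 Highest Activated and 1 of 68 Initial Activation cells, with overlapping intervals. The exhausted clusters had the highest shares of these clones in regressing spleens 2 and 3. The shares were 58.6% and 62.0% in Activated Exhausted, and 58.9% and 44.7% in Alternative Exhausted. Of the top spleen cells, 3 of 10 in the growing spleen, 78 of 310 (25.2%, 20.4 to 30.4) in regressing spleen 2 and 105 of 396 (26.5%, 22.2 to 31.2) in regressing spleen 3 were Intermediate Activation cells.

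**Figure D5:**
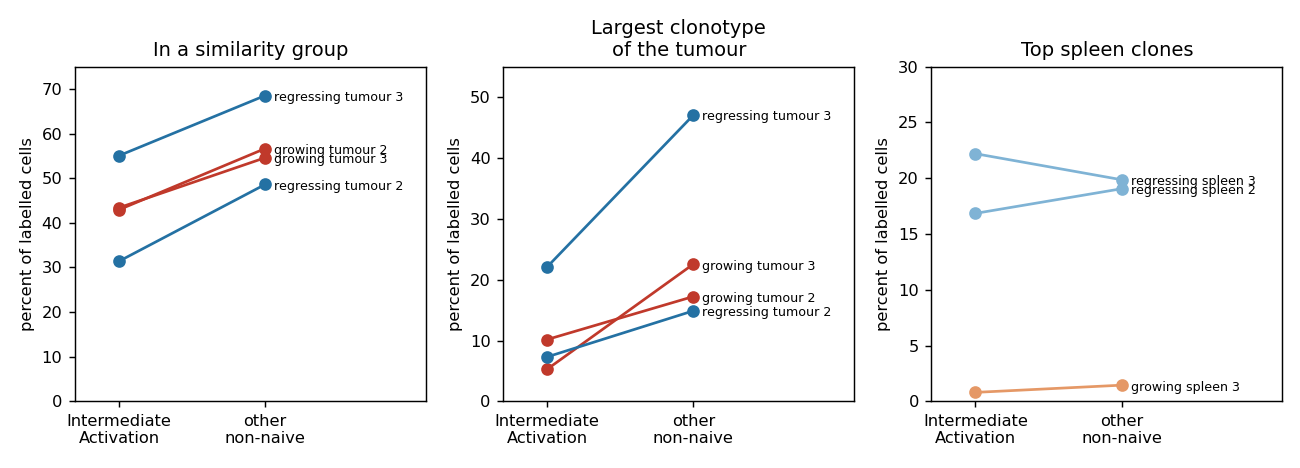
Lines join, within each library, the percent of labelled Intermediate Activation cells (left point) and of labelled other non-naive cells (right point) that carried a receptor of a similarity group, the largest clonotype of that tumour, or a top spleen clone. The first and second measures are lower in Intermediate Activation in all 4 tumours, and the third shows no common direction over the 3 spleens. The first and second measures share cells, because the largest clonotype of each tumour was in a similarity group. That clonotype was picked by its cells in the whole library, most of them outside Intermediate Activation, which favours a lower share inside it.

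Where a similarity group had 50 or more cells in a tumour and in the spleen of the same state and number, a smaller share of them lay in Intermediate Activation in the tumour, in 4 of 4 such cases. In regressing replicate 2, the cluster held 7.37% (5.93 to 9.04) of 1153 Group 1 cells in the tumour and 21.5% (16.0 to 27.7) of 205 in the spleen. For Group 9 of that replicate it held 6.55% (3.99 to 10.0) in the tumour and 38.8% (27.1 to 51.5) of 67 cells in the spleen. In regressing replicate 3 it held 15.3% (11.2 to 20.1) of 275 Group 1 cells in the tumour and 24.8% (19.5 to 30.7) of 242 in the spleen. Group 2 of replicate 3 gave 6.07% (5.16 to 7.08) in the tumour and 27.4% (19.1 to 36.9) of 106 cells in the spleen. These are single pairs of libraries, without a test, and they go the same way as the share among all non-naive cells.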

How the data were processed

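The analysis used the per-cell table of the 9 expression libraries. Per the submitters' processing notes, reads were processed with Cell Ranger; its version and the genome build are not given in the sources used here. The deposited table gives, as the authors computed them, each cell's UMI count and gene count without normalisation, and the percent of UMIs from mitochondrial genes. Per the file headers, an S score and a G2M score were deposited in the form Seurat writes, and the deposited phase matched the rule of these scores in 100% of cells. Cluster names, clonotype names, top spleen marks and similarity groups were deposited by the authors. No cell had fewer than 501 genes or more than 9.83% mitochondrial UMIs. How doublets were treated is not given, and none were called or removed here. Cells could not be thinned to a common depth without gene counts, so 4 UMI strata of the cluster were used. The A223 variant tables hold no T cells and were not used.

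Shares and medians were computed per library, which was the replicate. Growing and regressing tumours were compared by exact permutation tests, two-sided, tumours and spleens by exact sign-flip tests over 3 pairs, and receptor shares by exact sign-flip tests over libraries. Benjamini-Hochberg adjustment ran over the clusters, 8 measures, 3 receptor measures or 10 groups, and the threshold was 0.05. The functions were tested on simulated data. Deviations of cluster shares from the state means correlated at 0.830, 0.302 and 0.627 between tumours of the same number (replicates 1, 2 and 3), and the number was also used as a block. Between tumours of different number the correlations ran from -0.768 to 0.498. Growing 2 with regressing 3 (0.495) and growing 3 with regressing 2 (0.498) exceeded the value of replicate 2. In replicate 1, the 3′ libraries, number and capture kind cannot be told apart. Python 3.11.15, numpy 2.4.6, pandas 2.3.3, scipy 1.17.1, matplotlib 3.10.9, R 4.3.3 and limma 3.58.1 were used.

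The cells, lists and tests were chosen with earlier results of these data known. Clonotypes named were the 3 with most cells of the cluster per tumour, those with 5 or more cells of it in at least 2 tumours, and the 3 highest and 3 lowest shares among clonotypes of 50 or more cells. The largest clone of each tumour, the receptor comparisons with Initial and Highest Activated cells, similarity groups in spleens, and the endings of alpha chains were added after seeing the data. Alternatives were the 5′ libraries alone, other cells for comparison, no pairing, means for medians, 1000 or more genes per cell, equal UMI strata, beta chains alone, limma with and without the block, and each library left out.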

Additional observations from a re-analysis of the deposited data

Results flagged for a closer look

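Of 3 receptor measures, the share of named clonotypes was the one whose difference between Intermediate Activation and other labelled cells ran in opposite directions in the tumour states. The share in the cluster minus that in other labelled cells was 4.996 and 6.16 percentage points in growing tumours 2 and 3, and -4.76 and -2.85 in regressing tumours 2 and 3. Growing minus regressing, the mean differences were 9.38 percentage points apart (exact permutation p = 0.33, the smallest that 2 libraries against 2 allow). Against other non-naive cells the signs stayed, at 1.72 and 2.66 in the growing tumours and -7.93 and -4.93 in the regressing tumours. Receptor labels covered 79.0% and 86.3% of the cluster's cells in these growing tumours and 53.6% and 65.3% in these regressing tumours, and the part of labelling in the difference was not tested. No group had 4 or more libraries, so single libraries could not be tested as outliers.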

How the results depend on the processing

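Of 132 alternatives to 34 results that did not leave out a library, 113 kept the direction and the side of the threshold and 19 turned the direction; no difference passed the threshold under any of them except where the report says so. The growing minus regressing share became 0.530 percentage points with 5′ libraries only, 0.206 among non-naive and 2.63 among non-naive, non-dividing cells. Growing minus regressing, G2M calls became -0.218 points and mitochondrial percent 0.0216 with 5′ libraries only. With equal UMI strata, G1 calls became -0.528, genes -10.5 and mitochondrial percent 0.0452, and with 1000 or more genes mitochondrial percent became 0.00373. Tumour minus spleen, G2M calls became 0.0886 with equal UMI strata. The gap between cluster and other cells in the tumour minus spleen difference turned for G2M calls to 0.320 against non-dividing cells and 0.422 against Initial and Highest Activated cells, where it was 1237 for UMIs and 219 for genes. Named clonotypes became -2.12 against non-naive and -1.84 against non-naive, non-dividing cells, and top spleen clones -0.173, -0.469 and, against Initial Activation, -16.6. The cause of these turns was not tested. Leaving out each library in turn, 10 results turned: the share (-1.05 to 0.593), G2M calls (-0.562 to 0.611), S score (-0.00314 to 8.08e-05), G2M score (-0.00192 to 0.00273) and mitochondrial percent (-0.167 to 0.106) between tumour states, S calls between tumour and spleen (-2.30 to 0.424), named clonotypes (-0.873 to 2.77), and the make-up by named (-11.4 to 14.4), largest (-7.70 to 7.09) and top 10 clonotypes (-4.45 to 20.5). The non-naive share stayed between -24.4 and -16.0, mitochondrial percent by tissue between -1.37 and -1.02, similarity groups between -12.7 and -10.5, and the largest clone between -15.6 and -9.72. With the replicate number as a block, limma gave a log2 odds of -0.03 for the share (adjusted p 0.920, against 0.900 without the block), and the block changed no call on the share of Intermediate Activation or on the measures within it. The number of libraries and, for receptors, unlabelled cells limit these results.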

Other observations

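Some clonotypes with many cells in Intermediate Activation had alpha chains with the same last 7 residues. Among endings shared by 3 or more clonotypes, the one with the highest share in the cluster had 3 clonotypes with 191 cells in 3 tumours, and 81 of these cells (42.4%) lay in the cluster. They were clone 4 of growing tumour 3, with 32 of 82 cells in the cluster, clone 17 of regressing tumour 2, with 32 of 56, and clone 19 of regressing tumour 2, with 16 of 52 (30.8%). Clone 19 of regressing tumour 2 also had 1 of 1 cell in growing tumour 2. All 3 had different beta chains and belonged to no similarity group. The ending found in most clonotypes, 19 with 4061 cells, had 7.78% of its cells in the cluster. The endings were chosen after the values were seen, so no test is given.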
